A study of Mus musculus with 2 samples.

Results

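The longest small RNAs listed for mouse testis in this series are 38 to 40 nt long, well above the size of a mature piRNA. The 2301113 distinct sequences described here were all those of 38, 39 or 40 nt, in either library, that matched no microRNA, rRNA, snRNA, snoRNA or mitochondrial RNA gene of GENCODE M21 in sense, out of 22794309 distinct sequences of all lengths. A further 1924 sequences of these lengths matched such a gene and were left out. The Tdrkh-/- library listed 1796611 of the very long sequences, with 7417082 reads or 12.2% of its 60973266 reads. The Tdrkh+/- library listed 589187 of them, with 1223935 reads or 2.84% of its 43172204 reads. Only 84685 sequences were listed in both, which was 4.71% of the Tdrkh-/- list and 14.4% of the Tdrkh+/- list.

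Each genotype was represented by 1 library, made from testes of 11 dpp mice (days after birth), with 5 pairs of testes pooled. RNA of 15 to 40 nt was cut from a gel, so 40 nt is also the upper edge of what could be recovered. Tdrkh-/- mice lacked exons 2 to 4 of both Tdrkh copies and Tdrkh+/- mice lacked them on 1 copy, after EIIa-Cre had excised a floxed allele on a C57Bl6/129 background and the Cre transgene had been bred out. The heterozygote served as the control, and no wild type library was analysed here. The labels do not say from which of the independent knockout lines the tissue came. Because whole testes were used, fewer cells of a type and less small RNA per cell cannot be told apart.

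PIWI-interacting RNAs (piRNAs) guide PIWI proteins in germ cells, where they silence transposons and also arise in quantity from ordinary messenger and long noncoding RNAs. Primary piRNAs are cut from long single-stranded precursors, mostly before a U, loaded into a PIWI protein as an overlong intermediate and then shortened from the 3′ end to their final size. TDRKH is a Tudor and KH domain protein on the mitochondrial outer membrane that binds PIWI proteins and the trimming enzyme PNLDC1. Secondary piRNAs arise when a PIWI protein slices a target opposite position 10 of its guide, which leaves an A at position 10 and a 10 nt overlap between opposite strands.

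The sequences below show what the very long molecules look like beside the shorter ones that begin at the same base. Each is the most-read very long sequence of a 5′ end in a noncoding RNA, followed by the most-read sequence of 31 to 37 nt and of 24 to 30 nt from the same end. Capitals mark the first 24 nt, the stretch by which ends were matched, T stands for U, and positions are GRCm38.
Gm47031, 38 nt: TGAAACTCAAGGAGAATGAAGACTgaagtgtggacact
Gm47031, 37 nt: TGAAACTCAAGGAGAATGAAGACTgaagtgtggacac
Gm47031, 29 nt: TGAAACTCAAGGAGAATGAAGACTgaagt
Gm38246, 38 nt: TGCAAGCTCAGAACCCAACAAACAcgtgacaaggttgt
Gm38246, 35 nt: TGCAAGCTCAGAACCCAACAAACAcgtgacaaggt
Gm38246, 27 nt: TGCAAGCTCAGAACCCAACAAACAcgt
Gm38194, upstream end, 39 nt: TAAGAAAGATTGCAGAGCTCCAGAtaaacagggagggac
Gm38194, upstream end, 37 nt: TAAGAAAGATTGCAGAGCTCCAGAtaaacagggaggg
Gm38194, upstream end, 29 nt: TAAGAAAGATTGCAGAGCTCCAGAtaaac
Gm38194, downstream end, 38 nt: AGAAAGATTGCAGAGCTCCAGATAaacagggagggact
Gm38194, downstream end, 37 nt: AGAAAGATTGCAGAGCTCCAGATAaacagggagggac
Gm38194, downstream end, 27 nt: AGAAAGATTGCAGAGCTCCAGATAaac
These 4 ends carried the most-read very long sequences of Tdrkh-/- among those open to choice. Such sequences match a single gene in sense and lie outside untranslated regions, with at most 2 ends per gene. The rule also left out 1 chromosome, so sequences from it could not be shown however often they were read. On the opposite strand the very long sequences also matched other genes, 2 for Gm47031, 1 for Gm38246 and 2 for each end of Gm38194, so their origin at the position given is not certain.

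At the Gm47031 end (a sense intronic RNA, ENSMUSG00000112342.1, exon 1 of 1, chr10:102321273-102321310, plus strand), the 38 nt sequence was read 13576 times in Tdrkh-/- and 42 times in Tdrkh+/-. Very long sequences made up 75.1% of the 27793 reads of that end in Tdrkh-/- and 26.7% of its 311 reads in Tdrkh+/-. The share at 24 to 30 nt was the other way round, 2.43% in Tdrkh-/- and 57.6% in Tdrkh+/-. Gm38194 (ENSMUSG00000102307.1, chromosome 1, plus strand) had a pair of such ends 2 nt apart, at chr1:195322359-195322397 and chr1:195322361-195322398. Very long sequences held 76.7% of the reads of the upstream end in Tdrkh-/- and 8.95% in Tdrkh+/-, and 70.1% and 4.18% of the reads of the downstream end. In Tdrkh+/-, 87.6% of reads of the upstream end and 94.5% of the downstream end were 24 to 30 nt long, against 15.5% and 3.92% in Tdrkh-/-.

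The Gm38246 end (ENSMUSG00000103464.1, chr3:51104459-51104496, plus strand) had far more reads but a different make-up. Its 38 nt sequence was read 10487 times in Tdrkh-/- and 88 times in Tdrkh+/-, yet very long sequences were only 4.46% of 404620 reads in Tdrkh-/- and 0.428% of 67300 in Tdrkh+/-. Reads of 24 to 30 nt dominated this end in both libraries, with 74.6% and 94.5%. The sequences chosen for Tdrkh-/- thus came both from ends where most reads were very long and from an end where few were.

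Chosen by the same rule, the most-read very long sequences of Tdrkh+/- came from other loci, and 3 of the 4 lie in noncoding RNAs of chromosome 17.
Gm49794, upstream end, 40 nt: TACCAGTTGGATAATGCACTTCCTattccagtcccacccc
Gm49794, upstream end, 27 nt: TACCAGTTGGATAATGCACTTCCTatt
Gm49794, downstream end, 38 nt: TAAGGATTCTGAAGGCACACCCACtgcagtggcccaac
Gm49794, downstream end, 25 nt: TAAGGATTCTGAAGGCACACCCACt
Gm10505, 38 nt: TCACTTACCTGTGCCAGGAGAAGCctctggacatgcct
Gm10505, 26 nt: TCACTTACCTGTGCCAGGAGAAGCct
1700001L05Rik, 40 nt: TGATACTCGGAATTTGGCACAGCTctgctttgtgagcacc
1700001L05Rik, 30 nt: TGATACTCGGAATTTGGCACAGCTctgctt
They show that a heterozygous testis also held very long RNAs with the same 5′ ends as shorter ones.

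Gm49794 (a lincRNA, ENSMUSG00000116879.1, exon 1 of 2) gave the 40 nt sequence at chr17:27358606-27358645, with 3 reads in Tdrkh-/- and 1333 in Tdrkh+/-, and the 38 nt sequence at chr17:27361455-27361492, with 5 and 1046. Very long sequences were 2.53% of 356 reads at the upstream end in Tdrkh-/- and 5.29% of 46340 in Tdrkh+/-. At the downstream end they were 33.7% of 101 reads in Tdrkh-/- and 42.2% of 9653 in Tdrkh+/-. The Gm10505 end (ENSMUSG00000073430.5, exon 2 of 2, chr17:27343351-27343388) was nearly all long: 76.5% of its 1221 reads in Tdrkh+/- were 38 to 40 nt and 0.491% were 24 to 30 nt, and the 13 reads in Tdrkh-/- were 69.2% very long. At 1700001L05Rik (ENSMUSG00000075511.9, exon 3 of 3, chr15:83354938-83354977, minus strand) the share of very long reads was about equal, 1.58% of 30024 reads in Tdrkh-/- and 1.63% of 85353 in Tdrkh+/-. At these 4 ends the shares in the libraries lay closer together than at Gm47031 and Gm38194, with few reads behind the Tdrkh-/- values of the chromosome 17 ends. These 4 were chosen by very long reads in Tdrkh+/- and the others by those in Tdrkh-/-, so the choice itself favours such a contrast.

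Very long reads were several times more frequent in the knockout. Per microRNA read (18 to 25 nt, inside a microRNA hairpin, 2486303 in Tdrkh-/- and 2363475 in Tdrkh+/-), Tdrkh-/- had 2.98 very long reads and Tdrkh+/- 0.518, which gives a ratio of 5.76 (95% exact binomial interval 5.75 to 5.77). No difference in these data has a replicate check, and intervals express counting error alone, as PCR copies of a molecule could not be recognised. The ratio fell within the very long range from 6.34 at 38 nt to 5.53 at 39 nt and 5.35 at 40 nt, and it was higher just below, 8.97 at 35 nt and 7.33 at 37 nt. Reads did not pile up at the longest listed length, with 4.70% of Tdrkh-/- reads and 0.996% of Tdrkh+/- reads at 38 nt against 3.53% and 0.886% at 40 nt. The sequences left out as structural RNA had 12226 reads in Tdrkh-/- and 12787 in Tdrkh+/-, which is a ratio of 0.909 (0.887 to 0.932), so 38 to 40 nt fragments of those RNAs were not more frequent in the knockout.

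The knockout library also read its very long sequences more deeply. Each averaged 4.13 reads in Tdrkh-/- and 2.08 in Tdrkh+/-. Single-read sequences were 64.7% of distinct sequences in Tdrkh-/- and 70.8% in Tdrkh+/-, and they carried 15.7% and 34.1% of the very long reads. The most-read sequence reached 33565 reads in Tdrkh-/- and 3605 in Tdrkh+/-, and the 10 most-read held 3.21% and 1.82% of very long reads. The sequences listed in both libraries, though few, carried 41.3% of the very long reads of Tdrkh-/- and 36% of those of Tdrkh+/-.

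A U at the 5′ end, the mark of primary piRNAs, was common in both libraries and more so in the knockout. Of very long reads, 72.8% began with U in Tdrkh-/- (Wilson interval 72.7 to 72.8%) and 57.6% in Tdrkh+/- (57.5 to 57.7%). At positions 2 to 24 of the same reads U stood at 22.1% at the median and 26.6% at most in Tdrkh-/-, and at 21.3% and 31.5% in Tdrkh+/-. C took most of the remaining gap, with 9.73% of 5′ ends in Tdrkh-/- and 21.9% in Tdrkh+/-, whereas A was alike with 14% and 14.9%. At 31 to 37 nt both libraries had 73.6% 5′ U, and at 24 to 30 nt the shares were 75.7% in Tdrkh-/- and 82.8% in Tdrkh+/-. So the 5′ U share of Tdrkh-/- was similar in the 3 length windows, and that of Tdrkh+/- was lower the longer the reads. Among sequences listed in both libraries the gap at 38 to 40 nt was 7.95 points, 75.5% against 67.6%.

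Sequences that share a few short stretches carried many of the 5′ C ends of the heterozygote. The 3 stretches of 14 nt that occurred in the largest numbers of very long reads of Tdrkh+/- were CTGCCTCTGCCTCC, CGAACTCAGAAATC and CTTGAACTCAGAAA, counted one after the other without the reads already taken. In Tdrkh+/- the first was in 34790 distinct sequences and the second in 24896. The first pair read like the reverse complement of the mouse B1 retrotransposon, from general knowledge of its consensus, as no repeat annotation was used. Members that held any of the 3 were 0.971% of very long reads in Tdrkh-/- and 9.94% in Tdrkh+/-, or 0.029 and 0.0515 per microRNA read, a ratio of 0.563. Their first base was C in 54.5% of reads in Tdrkh-/- and in 76.3% in Tdrkh+/-. Without them, 73.1% of very long reads of Tdrkh-/- and 62% of those of Tdrkh+/- began with U, and 9.29% and 15.9% with C. The overall ratio of very long reads was then 6.33. Leaving them out was decided after these values had been seen.

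The stretches most frequent in the knockout were different. GGACATAGTACTAC was in 128756 reads of Tdrkh-/- (1.74%) and 2614 of Tdrkh+/- (0.214%), spread over 8934 and 750 distinct sequences, and 93.1% of its Tdrkh-/- reads began with A. GATGAAAGGATGGA was in 113665 and 1407 reads, and CTGAGAAAGAAATT in 111262 and 1804. Their reverse complements were rare, with 562 reads in Tdrkh-/- for the first, 64 for GATGAAAGGATGGA and 34 for CTGAGAAAGAAATT, so reads of these stretches came nearly all from 1 strand. No gene or repeat name was given to them.

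Reads without a 5′ U more often had an A at position 10 than at other positions, in both libraries. The share was 55.3% in Tdrkh-/- (55.3 to 55.4%) and 49.2% in Tdrkh+/- (49.0 to 49.3%), against 32.3% at the median and 43.7% at most at the other positions from 2 to 24 in Tdrkh-/-, and 23.8% and 42.4% in Tdrkh+/-. The libraries had the same share, 45.0%, when each distinct sequence counted once. Overlaps with the opposite strand were read only for very long reads placed on a transcript, since no genome was used. They do not cover the 55.8% of very long reads in Tdrkh-/- and 61.1% in Tdrkh+/- without a transcript match. Among placed reads, 24.9% in Tdrkh-/- and 12.1% in Tdrkh+/- had a 5′ end that overlapped another by exactly 10 nt. The other was the 5′ end of a 24 to 30 nt sequence of the opposite strand in the same library. Other overlaps of 1 to 24 nt had medians of 9.79% and 6.48% and reached at most 16.1% and 7.68%. The 10 nt overlap therefore stood above every other overlap in both libraries, also outside repeat-derived sequences (19.5% and 11.0%). Over distinct sequences it was found in 4.02% and 4.14%.

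Most very long reads matched no annotated transcript over their whole length. These were 55.8% of reads in Tdrkh-/- and 61.1% in Tdrkh+/-, in which 19.0% and 17.3% of all very long reads had a match for their first 24 nt alone. The share that matched nothing was smaller for shorter reads, 46.6% and 55.6% in the 24 to 30 nt window and 49.8% and 56.5% in the 31 to 37 nt window. Sense matches to protein-coding genes made up 32.4% of very long reads in Tdrkh-/- and 32% in Tdrkh+/-, and long noncoding RNAs 4.70% and 3.95%. Matches to antisense strands alone were 2.62% and 1.56%, and pseudogenes 0.594% and 0.360%. A very long sequence read once matched a transcript in 2.45% of cases in Tdrkh-/- and 17.8% in Tdrkh+/-, so values that count each distinct sequence once draw on unlike sequences in the libraries.

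All match classes named here were more frequent per microRNA read in the knockout, and the class called repeat-derived most of all. Sequences that match more than 20 genes on 1 strand, called repeat-derived here, held 3.77% of very long reads in Tdrkh-/- and 0.954% in Tdrkh+/-, which is a ratio of 22.8 per microRNA read (22.3 to 23.2). Antisense matches followed with 9.70 and pseudogenes with 9.51, and long noncoding RNAs had 6.86, protein-coding genes 5.83 and sequences without a match 5.26. The repeat-derived class left out most members with the 3 stretches frequent in Tdrkh+/-, which had a ratio of 0.563. For the 3 stretches in turn, 94.6%, 93.9% and 91.4% matched no transcript in Tdrkh+/-. In Tdrkh-/- it was 90.1%, 90.7% and 84.6%. Counted once per distinct sequence, repeat-derived sequences were the smaller share in Tdrkh-/-, with 0.115% against 0.214%. Sequences read once, which matched a transcript less often in Tdrkh-/-, weigh on these shares, so they do not tell how many sequences carried the excess. Repeat-derived reads also departed in their bases. Only 45.1% of them began with U in Tdrkh-/- and 46.2% in Tdrkh+/-, and of the rest 88.0% and 66.4% had A at position 10, where other positions reached 71.7% and 54.2%. In sense reads of protein-coding genes 5′ U made up 75.9% in Tdrkh-/- and 54.6% in Tdrkh+/-, but in long noncoding RNAs it was 72.4% and 72.9%.

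Within messenger RNAs, very long reads of the knockout came mainly from 3′ untranslated regions, and those of the heterozygote about equally from coding and 3′ untranslated regions. The 3′ untranslated share was 68.9% in Tdrkh-/- (68.9 to 69.0%, 2074547 reads placed) and 52.2% in Tdrkh+/- (52.0 to 52.4%, 344624 reads). Coding regions held 29.3% and 45.7%, and 5′ untranslated regions 1.72% and 2.14%. Of the annotated bases of the 21938 coding transcripts used, 40.4% lie in 3′ untranslated, 52.5% in coding and 7.15% in 5′ untranslated regions. In Tdrkh-/- the 3′ untranslated share hardly moved with length, being 73.3% in the piRNA-size window and 69.1% in the 31 to 37 nt window, whereas in Tdrkh+/- the shares were 67.5% and 61.7%, above its 52.2% at 38 to 40 nt. Among sequences listed in both libraries the shares at 38 to 40 nt were closer, 78.2% and 68.7%.

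Very long reads often began exactly where shorter reads began. In Tdrkh-/-, 54.8% of them had the first 24 nt of a 24 to 30 nt sequence of their own library, and in Tdrkh+/- 55.3%. When the 24 nt window was moved 1 to 10 nt downstream, the share was 30.8% at the median and 32.6% at most in Tdrkh-/-, and 28.6% and 33.6% in Tdrkh+/-. The Tdrkh-/- reads matched the 24 to 30 nt ends of Tdrkh+/- still more often, 62.7% against 39.4% at the highest shifted start, while the Tdrkh+/- reads matched those of Tdrkh-/- in 37.9%. The sets of ends were unequal in size, since the 24 to 30 nt sequences of Tdrkh-/- began with 2586642 distinct 24 nt stretches and those of Tdrkh+/- with 6194334. With U required at the start of the window, the own-library values were 56.1% in Tdrkh-/- (shifted median 38.5%, highest 46.4%) and 63.8% in Tdrkh+/- (42.6%, 46.8%).

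Sharing with the 31 to 37 nt window of the same library was higher in the knockout. It was 69.8% in Tdrkh-/- (shifted median 45.7%, highest 51.9%) and 57.2% in Tdrkh+/- (32%, 40.1%), or 41.2% and 38.4% when distinct sequences were counted. These sets of ends were also unequal, with 3990213 distinct 24 nt stretches in Tdrkh-/- and 1748193 in Tdrkh+/-. Against the Tdrkh+/- set the libraries were about alike, with 58.0% of Tdrkh-/- reads and 57.2% of Tdrkh+/- reads. Against the Tdrkh-/- set, Tdrkh+/- reads shared their end in 49.5%. Both shorter windows held the end of 52.3% of very long reads in Tdrkh-/- and 46.7% in Tdrkh+/-. The 31 to 37 nt window alone held it for 17.5% and 10.5%, the 24 to 30 nt window alone for 2.55% and 8.55%, and neither for 27.7% and 34.2%. Reads whose end was found in neither window began with U in 66.3% of cases in Tdrkh-/- and 47.6% in Tdrkh+/-, below the 74.4% and 65.8% of those found in both. Classes differed in how often they shared their ends. With the 24 to 30 nt window, repeat-derived reads shared it in 90.6% of cases in Tdrkh-/- and 84.3% in Tdrkh+/-, long noncoding reads in 83.4% and 85.0%, and protein-coding reads in 58.3% and 55.3%. The few reads of other small structural RNAs shared it in 93.5% and 71.2%. The direction of the 24 to 30 nt comparison depended on the sequences counted: with those listed in both libraries alone it was 73.2% in Tdrkh-/- and 57.4% in Tdrkh+/-, and over distinct sequences it was 27.5% and 37.7%.

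Seen from the ends themselves, very long reads were a small part of most and more than 50% of the reads of some. At the 28565 ends with at least 50 reads of 24 to 40 nt in each library, the share of very long reads averaged 12.0% in Tdrkh-/- and 4.14% in Tdrkh+/-, with medians of 2.64% and 0.0%. It was higher in Tdrkh-/- at 16540 ends (57.9%), higher in Tdrkh+/- at 3367 and equal at 8658. Very long reads were more than 50% of the reads of an end at 2092 ends in Tdrkh-/- and 617 in Tdrkh+/-. Ends where they made up 90% or more held 36.8% of all very long reads in Tdrkh-/- and 38.5% in Tdrkh+/-, but most of that came from ends with fewer than 10 reads. Among ends with at least 10 reads, those at 90% or more held 14.3% of all very long reads in Tdrkh-/- and 5.65% in Tdrkh+/-. Ends where very long reads were under 10% held 8.16% and 12.6%.

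The base after the 3′ end was also enriched for U. In reads with a sense match, the next base of the transcript was U in 48.8% in Tdrkh-/- and 35.3% in Tdrkh+/-, the highest of the 21 positions around the 3′ end in both libraries. The last base of the read itself was U in 34.9% and 28.1%, and the base after the next in 26.3% and 23.8%. A 5′ end of another read of the same library began directly behind the very long read in 31.8% of cases in Tdrkh-/- and 25.9% in Tdrkh+/-. Starts 2 to 11 nt behind had 25.1% at the median and 26.5% at most in Tdrkh-/-, and 19.0% and 21.3% in Tdrkh+/-. With U required at the start, the position directly behind no longer stood out in Tdrkh-/- (40.6% against 39.3% at the median and 45.1% at most), and in Tdrkh+/- it still did (39.2% against 33.4% and 35.7%).

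Most genes with enough very long reads to be compared had more of them in the knockout. A gene counted as a host when its very long sense reads, with those of several genes divided equally, numbered at least 100 over both libraries. Of the 3841 such coding or long noncoding genes, 3298 or 85.9% had a ratio per microRNA read of 2-fold or more in favour of Tdrkh-/-, 35 or 0.911% were lower by 2-fold or more, and 508 lay in between. The minimum was summed over the libraries and Tdrkh-/- had more very long reads, so genes high in Tdrkh-/- passed it more easily, and the counts and medians describe the genes that passed and not all genes. Hosts had a median log2 ratio of 2.30, with the middle range from 1.44 to 3.18. The same genes had a median of 1.77 for reads of 31 to 37 nt and of -1.41 for reads of 24 to 30 nt, and 2256 of them combined a ratio of 2-fold or more upward for very long reads with one of 2-fold or more downward at 24 to 30 nt. At 2690 hosts (70.0%) there were more very long reads per read of 31 to 37 nt in Tdrkh-/- than in Tdrkh+/-, with medians of 0.262 and 0.186. The number of hosts depends on the counting. It was 455 higher and 3 lower of 625 when each distinct sequence counted once, scaled per distinct microRNA sequence. With at least 500 reads it was 849 higher and 4 lower of 898. Among sequences of both libraries alone 1317 of 1496 were higher, and with sequences of a single gene alone 2784 were higher and 13 lower of 3185.

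The hosts with most very long reads were a mixed group. D10Wsu102e (chromosome 10) led with 59027 reads in Tdrkh-/- and 9082 in Tdrkh+/-, a log2 ratio of 2.63 (2.60 to 2.66) against -0.84 at 24 to 30 nt. Of its placed reads, 98.6% and 99.7% lay in the 3′ untranslated region. Fth1 (chromosome 19), the heavy chain of the iron store ferritin, had 33414 and 3577 reads, a log2 ratio of 3.15, with 89.3% and 86.1% of its placed reads in the coding region, against 29.3% and 45.7% over all mRNA reads. Trim71 (chromosome 9), an RNA-binding ubiquitin ligase, had 20233 and 1866 reads, a log2 ratio of 3.37. These 3 hosts were higher at 38 to 40 nt and at 31 to 37 nt (2.38, 3.02 and 3.49) and lower at 24 to 30 nt (-0.84, -1.23 and -1.64), like the typical host.

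Other leading hosts rested on a single 5′ end. Pfas (chromosome 11), an enzyme of purine synthesis, had 45696 very long reads in Tdrkh-/- and 1506 in Tdrkh+/-, a log2 ratio of 4.85 (4.78 to 4.93), and its most-read end held 90.4% and 82.0% of them. Very long reads of Pfas per read of 24 to 37 nt numbered 0.861 in Tdrkh-/- and 0.123 in Tdrkh+/-. Bpnt1 (chromosome 1), a nucleotide phosphatase, had 31978 and 678 reads, a log2 ratio of 5.49 against 1.97 at 31 to 37 nt, with 81.5% and 77.4% on its most-read end. Fbxl18 (chromosome 5), an F-box protein, lay within 2-fold of parity, with 6398 and 5444 reads, a log2 ratio of 0.16 (0.11 to 0.21). In Tdrkh+/- 87.7% of those reads began at 1 end, against 46.2% for the most-read end in Tdrkh-/-. At 31 to 37 nt the gene had a log2 ratio of 2.16. The Fbxl18 ratio turned negative under several other ways of counting, down to -0.41 per transcript-matching read.

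Noncoding RNAs among the leading hosts went both ways. Gm47031 (chromosome 10) had 51885 very long reads in Tdrkh-/- and 376 in Tdrkh+/-, a log2 ratio of 7.04 (6.89 to 7.19), Gm37158 (chromosome Y) 37053 and 537, a log2 ratio of 6.03, and Gm47164 (chromosome 10) 28259 and 821, a log2 ratio of 5.03. Few of their reads were theirs alone, since sequences that match no other gene on either strand gave 5.94%, 0.668% and 10.8%. With such sequences alone the log2 ratios were 5.13, 4.37 and 5.35. Over distinct sequences, scaled per distinct microRNA sequence, they were 2.11, 2.22 and 1.88. All 3 were higher at 24 to 30 nt as well, with log2 ratios of 2.99, 3.18 and 2.31. Gm49794 (chromosome 17) was the opposite, with 162 reads in Tdrkh-/- and 11479 in Tdrkh+/-, a log2 ratio of -6.22 (-6.45 to -6.00). It held 0.938% of all very long reads of Tdrkh+/-.

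The 5 hosts with the highest ratios had few reads in Tdrkh+/-. Reg2 (chromosome 6), a secreted protein of the pancreas, had 2025 reads in Tdrkh-/- and 3 in Tdrkh+/-, a log2 ratio of 9.33 (7.78 to 11.6), and Gm28321 (chromosome 1) had 288 and 1, a log2 ratio of 8.10 (5.61 to 13.4). Gm36816 (chromosome 6) had 3307 and 17 reads, Gm37761 (chromosome 1) 316 and 2, and the vomeronasal receptor gene Vmn1r180 (chromosome 7) 253 and 1. Of these, only Gm28321 had mostly reads of its own, with 96.5% in sequences found in no other gene, against 0.148% for Reg2 and 0.0% for Vmn1r180.

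The 5 hosts with the lowest ratios were noncoding RNAs on chromosomes 7 and 17. Gm21269 (chromosome 7) had 4 very long reads in Tdrkh-/- and 610 in Tdrkh+/-, a log2 ratio of -7.33 (-9.21 to -5.96). Its neighbour Gm10619 had 8 and 603 reads, a log2 ratio of -6.31, and Gm10505 (chromosome 17) 38 and 4698, a log2 ratio of -7.02. With Gm49794, these had been listed because earlier results of these data showed them to be lower at both shorter lengths, and all 4 were lower here too. The 2 others on that list had too few reads to count as hosts, 0 and 19 for 4930463O16Rik and 0 and 9 for 4933412L11Rik. 1700008K24Rik (chromosome 17) had no very long read in Tdrkh-/- and 181 in Tdrkh+/-. With 3 counts put in place of 0 it was 63.5-fold lower, a log2 ratio of -5.99, and the interval reached up to -5.68. At the 4 listed hosts the proportion of very long reads was similar in the libraries: Gm49794 had 0.0267 per shorter read (24 to 37 nt) in Tdrkh-/- and 0.0224 in Tdrkh+/-, Gm10505 0.0156 and 0.0172, and Gm10619 0.0316 and 0.0333. Gm21269 had 0.00473 and 0.011, though its Tdrkh-/- value rests on the 4 reads above. In all, 13 of the 35 lower hosts were noncoding, or 3.99% of the 326 noncoding hosts, and the other 22 were 0.626% of the 3515 coding hosts, while 8 of the 35 were at least 2-fold lower at all 3 length windows.

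Some hosts gave more very long reads than all shorter ones together. Mylpf (chromosome 7), a light chain of fast skeletal muscle myosin, had 374 very long reads in Tdrkh-/- and 15 in Tdrkh+/-, or 8.31 and 0.060 per read of 24 to 37 nt, with 96.5% and 80.0% on its most-read end. Olfr914 (chromosome 9), an olfactory receptor gene, had 1416 and 16, or 5.09 and 0.0743, though 0.0698% of its reads came from sequences of that gene alone. Gm26805 (chromosome 1) had 566 and 37, and Thumpd3 (chromosome 6), a subunit of a tRNA methyltransferase, 1351 and 205, or 3.68 and 0.995. The antisense RNA 2900060B14Rik (chromosome 1) differed from these, with 1093 and 703 reads and 4.02 and 3.35 per shorter read, so that very long reads prevailed in both genotypes. Its log2 ratio of 0.56 was -0.01 per transcript-matching read.

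Genes of the piRNA pathway, cytosolic ribosomal proteins and histones were hosts below the general level. All 22 listed piRNA pathway genes had a very long read and 10 reached 100 reads, of which 6 were at least 2-fold higher and 0 lower, against 85.9% higher and 0.911% lower among all hosts, with a median log2 ratio of 1.24 beside 2.30. Piwil2, the PIWI protein MILI, had 2752 reads in Tdrkh-/- and 1053 in Tdrkh+/-, a log2 ratio of 1.31 (1.21 to 1.42), of which 85.1% and 85.8% lay in its coding region. Exd1, a partner of the Tudor protein TDRD12, had 473 and 68, a log2 ratio of 2.72. The chaperone gene Hsp90aa1 had 343 and 232, with a log2 ratio of 0.49 that was -0.09 per transcript-matching read, and the Tudor gene Tdrd1 had 116 and 74, with 0.58. Of 51 ribosomal protein hosts, 32 were at least 2-fold higher and 0 lower, with a median of 1.39, and of 43 histone hosts 24 were higher and 4 lower, with a median of 1.12, beside the same 85.9% and 0.911% of all hosts. At 24 to 30 nt their medians were -2.38 and -2.49.

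Reads of Tdrkh itself and of cell type markers were few at these lengths. Tdrkh had 77 very long reads in Tdrkh-/- and 16 in Tdrkh+/-, a count over all its exons that does not check the deletion. Reads of germ cell genes numbered 107 and 48 for Dazl, 97 and 41 for Ddx4, 222 and 51 for Zbtb16, 138 and 95 for Sycp1 and 35 and 24 for Sycp3. The Sertoli cell genes Sox9 had 36 and 24, Amh 9 and 2, Clu 113 and 128 and Wt1 12 and 9. The peritubular genes Myh11 had 183 and 126 and Acta2 224 and 169, and of the Leydig cell genes Star had 317 and 13, Cyp11a1 3 and 14 and Hsd3b1 11 and 1. Log2 ratios were close for the peritubular genes, 0.47 for Myh11 and 0.33 for Acta2, and spread more widely within the other cell types. Small RNA reads of a gene do not measure its mRNA, so cell make-up was not tested.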

How the data were processed

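Small RNAs of 1 Tdrkh-/- and 1 Tdrkh+/- testis library were read on an Illumina Genome Analyzer II (labels' protocols). The authors deposited, per library, each distinct sequence with its unnormalised read count, in all 60973266 reads in Tdrkh-/- and 43172204 in Tdrkh+/-. The submitters' processing notes name Bowtie and mm9. Tool versions, adapter removal and read filters: not given in the sources used here. Sequences were matched exactly and over their whole length, on both strands, to GENCODE M21 transcripts (GRCm38), so introns, intergenic loci and mismatches stay without a match, and no genome was used. Very long reads were taken as the 38 to 40 nt sequences outside structural RNA genes. Reads in several genes were divided equally, messenger RNA parts came from 1 coding transcript per gene, and counts were scaled per microRNA read. Where each distinct sequence counted once, the scaling was per distinct microRNA sequence. Tools were Python 3.11.15 with Numba 0.67.0, pandas 2.3.3, SciPy 1.17.1 and NumPy 2.4.6.

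With 1 library per genotype no test was made. Intervals are 95% exact binomial for ratios and Wilson for shares. A count of 0, or below 1 after division among genes, was set to 3 counts per library, and counts of 1 or 2 were kept. Alternatives changed the counting unit, the lengths, the sequences kept, the scaling, the host minimum, the shared length and the repeat definition. Genes named are the 10 hosts with the highest mean share, the 5 highest and 5 lowest ratios, the 5 with most very long reads per shorter read in Tdrkh-/-, and up to 4 piRNA pathway genes. Sequences shown are the 4 most-read per library in coding or noncoding regions, matching 1 gene in sense, at most 2 per gene. The rule for the sequences shown also left out 1 chromosome, so they are not a ranking over all chromosomes. The members, lists and rules were chosen with earlier results of these data known. The matcher was tested on 80 sequences against a plain text search, with 0 differences. In counts simulated for the 3841 hosts, 100 of 100 changed 4-fold passed the 2-fold mark, and 0 of 100 changed 1.5-fold and 0 of 3641 unchanged did. This checks the working of the 2-fold mark and gives no error rate for the hosts called, since variation between libraries could not be measured.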

Additional observations from a re-analysis of the deposited data

How the results depend on the processing

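No paired analysis was possible because there is 1 library per genotype and no test. Where each distinct sequence counted once, ratios were not per microRNA read. They were scaled per distinct microRNA sequence, 2317 in Tdrkh-/- and 3032 in Tdrkh+/-, for all very long sequences and for hosts. The excess of very long reads (log2 2.53 per microRNA read) kept its direction throughout: 2.00 with each distinct sequence counted once, 2.88 without sequences read once, 2.57 at 38 and 39 nt, 2.47 with sequences of a single gene, 2.72 with sequences of both libraries, 2.10 per read listed, 1.95 per transcript-matching read and 2.66 without the 3 stretches frequent in Tdrkh+/-, the last chosen after the data were seen. In the same order of the first 5 settings, the difference in 5′ U (15.1 points) was 16.4, 13.2, 14.5, 18.9 and 7.95 points, and 11.1 without the stretches. For 3′ untranslated regions (16.7 points) it was 11.9, 14.3, 16.9, 15.9 and 9.46, and for a U as next base (13.6 points) 9.89, 12.8, 15.1, 15.6 and 9.24. Sharing with 31 to 37 nt (12.5 points) gave 2.81, 11.4, 12.0, 18.2 and 12.4, and 11.4 over the first 20 nt. For A at position 10 (6.16 points) the values were 0.0346 with distinct sequences, 6.60 without sequences read once, 4.63 with a single gene and 7.99 with both libraries. Sharing with 24 to 30 nt (-0.428 points) was -10.1, -1.42 and -1.29 with distinct sequences, without sequences read once and with a single gene, -3.24 over 20 nt, and reversed to 15.8 with both libraries. The repeat-derived share (2.82 points) reversed to -0.0989 with distinct sequences and was 3.07 without sequences read once, 2.78 at 38 and 39 nt, 6.20 with both libraries and 5.90 for more than 5 genes, and a single gene allows no value. Hosts at least 2-fold higher (3298 of 3841) numbered 455 of 625 with distinct sequences and 1317 of 1496 with both libraries. They numbered 6663 of 8425 with at least 30 reads and 849 of 898 with at least 500. Hosts lower (35 of 3841) numbered 3 of 625 with distinct sequences, 84 of 8425 with at least 30 reads and 4 of 898 with at least 500. With a single gene they numbered 13 of 3185, and per transcript-matching read 63 of 3841. The host median (2.30) was 1.38 with distinct sequences and 3.09 with at least 500 reads. Among named hosts, Fbxl18 turned to -0.02 at 38 and 39 nt, -0.12 with both libraries, -0.27 per read listed and -0.41 per transcript-matching read, Hsp90aa1 to -0.19 with distinct sequences and -0.09 per transcript-matching read, and 2900060B14Rik to -0.01 per transcript-matching read. Counting each distinct sequence once changed the log2 ratio of leading hosts most. It lowered most of them, for example from 4.85 to 1.64 for Pfas and from 5.49 to 0.74 for Bpnt1. It raised Fbxl18 from 0.16 to 1.42 and Gm49794 from -6.22 to -4.22. The causes were not tested. Depth limits single hosts, since 100 reads over both libraries is the minimum used.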

Other observations

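The lengths were not alike in their secondary-type reads. In Tdrkh-/-, A stood at position 10 of very long reads without a 5′ U in 60.2% of cases at 38 nt, 50.6% at 39 nt and 53.5% at 40 nt, and in Tdrkh+/- the shares were 49.3%, 50.4% and 47.8%. The 5′ U share moved less with length, 71.6%, 74.0% and 73.0% in Tdrkh-/- and 58.5%, 57.8% and 56.5% in Tdrkh+/-. A 5′ U was also more frequent among sequences that were read often. In Tdrkh-/- 69.1% of sequences read once began with U and 77.9% of those with 100 or more reads, and in Tdrkh+/- 52.5% and 66.7%. At the other end of the 5′ bases, C began 11.7% and 6.95% of these sequences in Tdrkh-/- and 25.3% and 17.4% in Tdrkh+/-.

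Opposite-strand pairing was also seen with longer partners. Among very long reads placed on a transcript, 25.9% in Tdrkh-/- and 11.8% in Tdrkh+/- had such a partner of 31 to 37 nt. There the 5′ end overlapped by 10 nt the 5′ end of the opposite-strand sequence. Other overlaps reached at most 17.7% and 7.20%. Sequences that matched no transcript had A at position 10 in 56.5% of their reads without a 5′ U in Tdrkh-/- and in 56.9% in Tdrkh+/-, whereas sense reads of protein-coding genes had it in 43.3% and 34.8%. In the protein-coding reads of Tdrkh+/- another position reached 35.2%, so position 10 did not stand out there, while in Tdrkh-/- other positions reached at most 37.8%. Pseudogene reads came between the repeat-derived and the other classes in Tdrkh-/-, with 71.9%, against 53.8% in Tdrkh+/-.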
